A study of Homo sapiens with 12 samples.

Results

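Autophagy machinery genes were followed across 4 groups of 3 libraries from T47D, a luminal breast cancer line that expresses the estrogen receptor. The set holds 40 genes chosen by symbol for their roles in starting, building, loading and regulating the autophagosome. All 40 were found among the 57773 genes of the count files. The choice was made with earlier results of these data known, so values of members set beside those of all genes are descriptive only. All cells carried an inducible hairpin RNA that targets PSMD2, which encodes part of the proteasome's 19S cap. In the control groups the hairpin was left uninduced. In the Lo19S groups it was induced with doxycycline at 0.2 µg/ml for 3 days, followed by 24 h in medium without doxycycline. Cells of both states were then given the solvent DMSO or the proteasome inhibitor bortezomib at 20 nM for 16 h. The line is a single cell line, doxycycline was given to the Lo19S groups only, and no group with doxycycline and no hairpin was analysed here, so the effect of doxycycline and that of the hairpin cannot be told apart. The labels do not say whether a group's libraries came from separate cultures. The tests then measure only the spread between libraries, which may be technical.

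Macroautophagy encloses cytoplasm in a double membrane, the autophagosome, which then fuses with the lysosome. A kinase complex around ULK1 starts the process, a lipid kinase complex around PIK3C3 marks the membrane with phosphatidylinositol 3-phosphate (PI3P), and a ubiquitin-like conjugation system attaches the small ATG8 proteins to the growing membrane. Receptors such as TAX1BP1 and CALCOCO2 bind both cargo and ATG8 proteins, and the MiT/TFE transcription factors, TFEB and TFE3 among them, are known to drive genes of lysosomes and autophagy. Autophagy and the proteasome are the main routes by which cells degrade proteins, and both handle ubiquitinated cargo.

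Promoter sequence is shown for 4 members: the pair of ATG8 genes with the largest bortezomib response, and ATG14 and CALCOCO2, which rose at least 2-fold in both states and whose windows hold a motif. They were chosen after values and sequences had been seen. Each run gives the 250 bases before the RefSeq start of the gene, 5′ to 3′ on the gene's strand, on GRCh38.p14. RefSeq windows were matched by symbol for 33 of the 40 members. Capitals mark TGACGTCA in GABARAPL1 (the cyclic AMP response element of ATF and CREB factors), TGACNNNGC or its reverse complement in MAP1LC3B and CALCOCO2 (the core of the antioxidant response element), and CACGTG in ATG14 (the E-box core that MiT/TFE factors bind).
GABARAPL1, chr12:10212627-10212876, plus strand: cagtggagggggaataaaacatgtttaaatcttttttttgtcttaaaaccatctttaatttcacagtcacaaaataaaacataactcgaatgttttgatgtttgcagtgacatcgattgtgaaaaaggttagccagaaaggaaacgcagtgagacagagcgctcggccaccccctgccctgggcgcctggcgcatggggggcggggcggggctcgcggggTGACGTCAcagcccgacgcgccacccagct
MAP1LC3B, chr16:87392086-87392335, plus strand: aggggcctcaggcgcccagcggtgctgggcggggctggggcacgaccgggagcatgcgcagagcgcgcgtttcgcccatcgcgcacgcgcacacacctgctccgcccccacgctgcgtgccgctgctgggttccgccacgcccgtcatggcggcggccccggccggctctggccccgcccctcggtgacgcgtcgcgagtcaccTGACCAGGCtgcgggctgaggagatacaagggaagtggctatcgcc
ATG14, chr14:55411831-55412080, minus strand: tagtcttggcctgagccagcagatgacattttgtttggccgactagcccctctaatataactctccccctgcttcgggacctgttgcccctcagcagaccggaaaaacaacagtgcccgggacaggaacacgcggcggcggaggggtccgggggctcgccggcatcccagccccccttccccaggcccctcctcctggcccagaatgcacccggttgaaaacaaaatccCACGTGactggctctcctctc
CALCOCO2, chr17:48830785-48831034, plus strand: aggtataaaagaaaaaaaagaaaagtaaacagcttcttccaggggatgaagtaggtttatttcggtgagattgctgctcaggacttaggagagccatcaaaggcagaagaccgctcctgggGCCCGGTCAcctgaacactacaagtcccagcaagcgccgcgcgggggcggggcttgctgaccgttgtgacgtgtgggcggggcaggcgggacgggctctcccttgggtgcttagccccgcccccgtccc

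Few of the members' windows held any of the motifs. Both strands were searched, and the shares are of 40 windows of members, since some members have several starts, and of 35116 windows in the whole RefSeq table. CACGTG was found in 2 members' windows (5%), those of ATG14 and ATG3, against 6.3% of all windows, and the full palindromic E-box of MiT/TFE factors, which contains it, in 0 against 0.3%. TGACNNNGC was found in 3 (7.5%), those of ATG101, MAP1LC3B and CALCOCO2, against 10.9%. TGACGTCA, added after the sequences had been read, was found in those of GABARAPL1 and TP53INP2 (5%), against 1.6%. The ATF4 motif TGATGCAAT (0.2% of all windows) and the heat shock element of 3 units (0.4%) were found in 0. These matches describe letters in a window and say nothing of binding.

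Library totals lay between 7376597 and 15003480 counts. Control DMSO replicate 3 stood apart from the other control DMSO libraries, from which its counts differed with chi-square values of 3.94 and 4.27 per degree of freedom. All other replicate pairs lay between 1.16 and 1.97. The hairpin's target PSMD2 was at 391.1 to 416.3 CPM (counts scaled by depth and by trimmed mean of M-values factors, TMM) in control DMSO libraries and 182.5 to 188.7 CPM in Lo19S DMSO libraries, and at 1505 to 1524 and 538.4 to 544.5 CPM with bortezomib. The 8 markers of luminal breast epithelium were all detected in every group, summing to 5839 to 5985 CPM in control DMSO libraries, to a lower 5242 to 5337 CPM in Lo19S DMSO libraries and to 3773 to 3951 CPM with bortezomib. Of the markers of other cells, the 6 of fibroblasts summed to 25.9 to 33.7 CPM under DMSO, 63.3 to 69.5 CPM in control cells with bortezomib and 44.0 to 47.0 CPM in Lo19S cells with bortezomib, nearly all of it COL1A1, with COL1A2 at or near 0. The 6 of leukocytes reached at most 2.42 CPM with CD3E at 0, and the 3 matched for endothelium at most 0.371 CPM. Their part in the results was not tested, and in such bulk libraries fewer cells of a type and less RNA per cell cannot be told apart.

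Bortezomib was compared with DMSO in each state to describe how the machinery responds to proteasome inhibition. Most members were higher with bortezomib in both states, led by the ATG8 genes MAP1LC3B and GABARAPL1, which encode the small proteins that coat the membrane. In control cells 29 of the 39 members tested rose and 4 fell, by edgeR's quasi-likelihood test at an adjusted p below 0.05. In Lo19S cells 30 rose and 7 fell. The 40th, MAP1LC3A, had too few counts to test. A change was the rule in this comparison: 81.4% of all 14714 genes tested were called in control cells (39.2% higher, 42.2% lower) and 77.5% in Lo19S cells (37.8% higher, 39.7% lower), against 84.6% and 94.9% of the members. The members' median log2 fold change was 0.70 in control cells and 0.62 in Lo19S cells, beside -0.04 and -0.02 over all genes tested. The bortezomib and DMSO libraries did not overlap for 33 members in control cells, where 81.1% of all genes tested did not, and for 37 in Lo19S cells, where 79.2% did not. The comparisons use separate libraries but the same joint fit, which shares its estimate of the spread. In both, 29 members were called higher and 4 lower, and 0 were called in opposite directions. How often all genes tested agreed was not counted, so no background stands beside these counts.

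**Figure D1:**
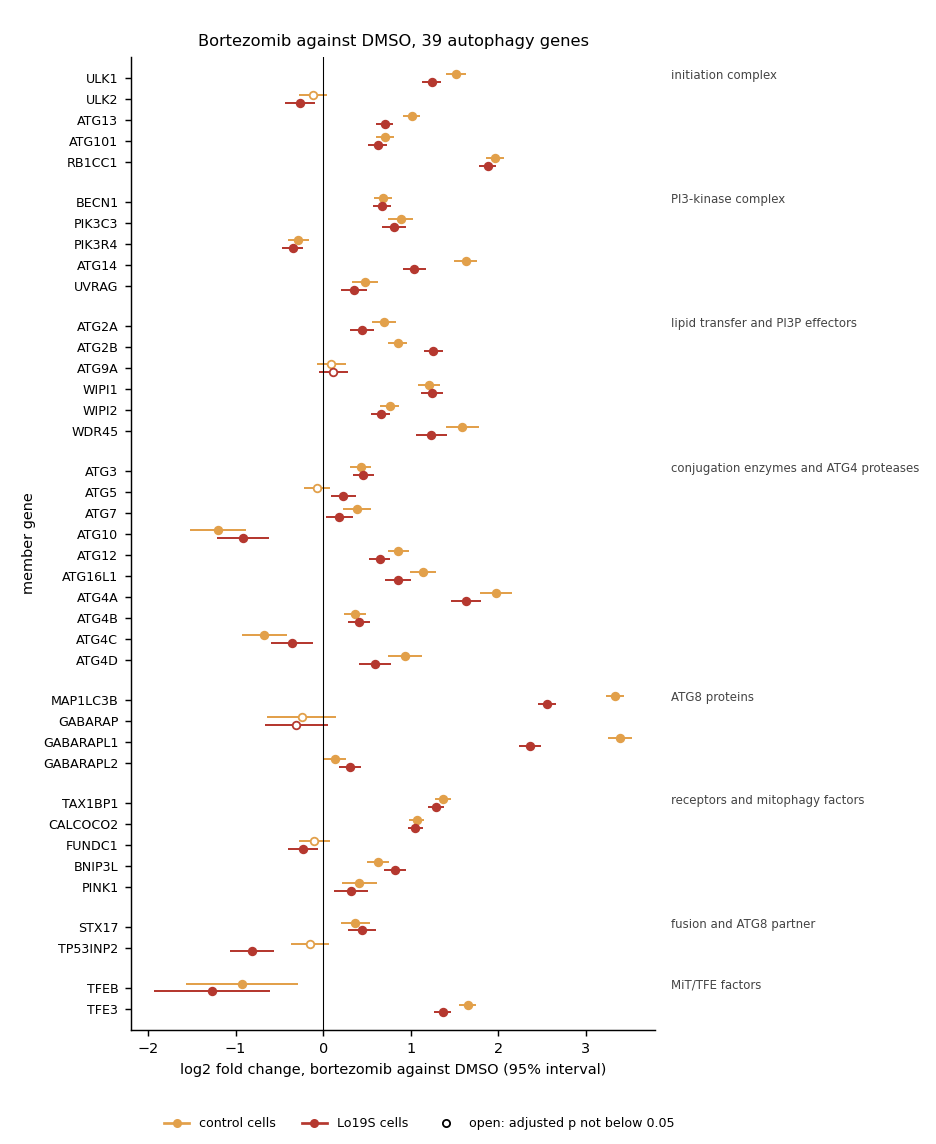
Log2 fold change of bortezomib against DMSO for the 39 members tested, grouped by role, in control cells (orange) and Lo19S cells (red); points are fitted values, lines their 95% intervals, and open points did not pass the test. MAP1LC3B and GABARAPL1 lie farthest to the right, between 2.37 and 3.39, while ATG10, ATG4C, PIK3R4 and TFEB lie below 0 in both states.

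The split depends on how libraries are scaled. With library totals in place of TMM factors the median of all genes moved by -0.38 in control cells and -0.29 in Lo19S cells. The members called were then 22 higher and 11 lower in control cells and 23 higher and 9 lower in Lo19S cells. Of all 14714 genes tested, 3721 were called higher and 8450 lower in control cells, and 3732 and 7917 in Lo19S cells. Lower calls were gained by ATG5, FUNDC1, TP53INP2 and ULK2 in control cells and by ATG9A and GABARAP in both states. Changes smaller than these shifts are therefore higher or lower only relative to the scaling. Members that rose at least 2-fold by TMM lie well above the shift.

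**Figure D2:**
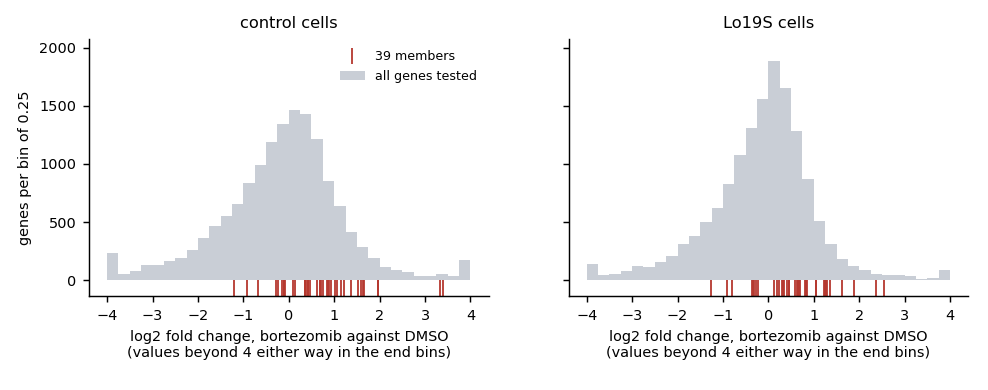
Distribution of the log2 fold changes of all 14714 genes tested (grey bars, genes per bin of 0.25) and of the 39 members (red ticks) for bortezomib against DMSO in control cells and in Lo19S cells. The members' ticks run from -1.20 to 3.39 in control cells and from -1.27 to 2.55 in Lo19S cells.

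Of the ATG8 genes tested, MAP1LC3B and GABARAPL1 were strongly induced, GABARAPL2 moved little, and GABARAP was measured too imprecisely to place. MAP1LC3B, which encodes the LC3B protein used as the usual marker of autophagosomes, was at 44.6, 48.6 and 44.7 CPM in control DMSO libraries and 56.8, 56.2 and 55.2 CPM in Lo19S DMSO libraries. In the bortezomib groups its level was 456, 459.9 and 467 CPM in control cells and 331, 313 and 342 CPM in Lo19S cells. No group overlapped another, and the order was control DMSO, Lo19S DMSO, Lo19S bortezomib, control bortezomib. MAP1LC3B rose 10.039-fold in control cells (log2 fold change 3.33, SE 0.045, adjusted p = 5.39e-47) and 5.87-fold in Lo19S cells (log2 fold change 2.55, SE 0.045).

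GABARAPL1, an ATG8 protein of the GABARAP branch, was at 13.0, 15.1 and 13.998 CPM in control DMSO libraries and 27.2, 27.6 and 26.6 CPM in Lo19S DMSO libraries. After bortezomib it reached 148, 145 and 147 CPM in control cells and 144, 134 and 141 CPM in Lo19S cells. The Lo19S state was thus higher without overlap under DMSO, while under bortezomib every Lo19S library was below every control library by a margin the test did not call, and with library totals the difference was 0.043. The response was 10.5-fold in control cells (log2 fold change 3.39, SE 0.064) and 5.16-fold in Lo19S cells (log2 fold change 2.37, SE 0.057). Its promoter window, printed above, holds TGACGTCA 30 bases before the start.

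GABARAPL2 moved little, and GABARAP, at a low level, had wide intervals. GABARAPL2 was at 86.1, 86.6 and 75.7 CPM in control DMSO libraries, 78.5, 81.6 and 87.4 in Lo19S DMSO, 87.0, 89.0 and 97.4 in control bortezomib and 100.1, 102 and 103 in Lo19S bortezomib. Its bortezomib libraries lay above the DMSO libraries of their state, by 0.14 log2 units in control cells (SE 0.055, adjusted p = 0.023) and 0.31 in Lo19S cells (SE 0.054). The call in control cells was lost without control DMSO replicate 3 or control bortezomib replicate 3 (adjusted p from 0.143 to 0.193), and with library totals it was called lower, at -0.24. GABARAP was at 4.75, 4.74 and 5.84 CPM in control DMSO, 5.17, 7.21 and 6.18 in Lo19S DMSO, 3.05, 5.22 and 4.51 in control bortezomib and 5.84, 4.53 and 4.68 in Lo19S bortezomib libraries, and all groups overlapped. It differed by -0.25 with bortezomib in control cells (interval -0.63 to 0.14) and -0.31 in Lo19S cells (-0.66 to 0.04), and was called lower in Lo19S cells without Lo19S DMSO replicate 1 (adjusted p = 0.0371). With library totals it was called lower in both, at -0.63 and -0.59. In GENCODE release 29, 30.5% of its exon bases also belong to AC120057.2 on the same strand, so its count is uncertain.

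MAP1LC3A, the LC3A gene, was nearly silent in this line, with counts of 1, 1 and 0 in control DMSO libraries, 0, 2 and 1 in Lo19S DMSO, 1, 1 and 2 in control bortezomib and 4, 0 and 1 in Lo19S bortezomib. The near-identical copies MAP1LC3B2 and GABARAPL3 had at most 5 and 2 counts in any library. How multi-mapped reads were treated is not given, so these counts do not show whether MAP1LC3B and GABARAPL1 lost reads. Per kilobase of annotated exon, the order of levels in control DMSO libraries was GABARAPL2 at 27.3 ± 2.02 CPM/kb (SD, n = 3), MAP1LC3B at 8.65 ± 0.428, GABARAPL1 at 3.44 ± 0.267 and GABARAP at 2.25 ± 0.279. With bortezomib the order in control cells was MAP1LC3B at 86.8 ± 0.996, GABARAPL1 at 35.9 ± 0.272, GABARAPL2 at 30.04 ± 1.82 and GABARAP at 1.88 ± 0.490. MAP1LC3B thus passed GABARAPL2 as the ATG8 gene with the highest level per length. Exon lengths are those of GENCODE release 29 and not of the annotation behind the counts, so these levels are approximate. The place of GABARAP in the order is uncertain. Of its exon bases 30.5% are shared with AC120057.2 on the same strand, and 25.2% lie opposite AC120057.3.

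**Figure D3:**
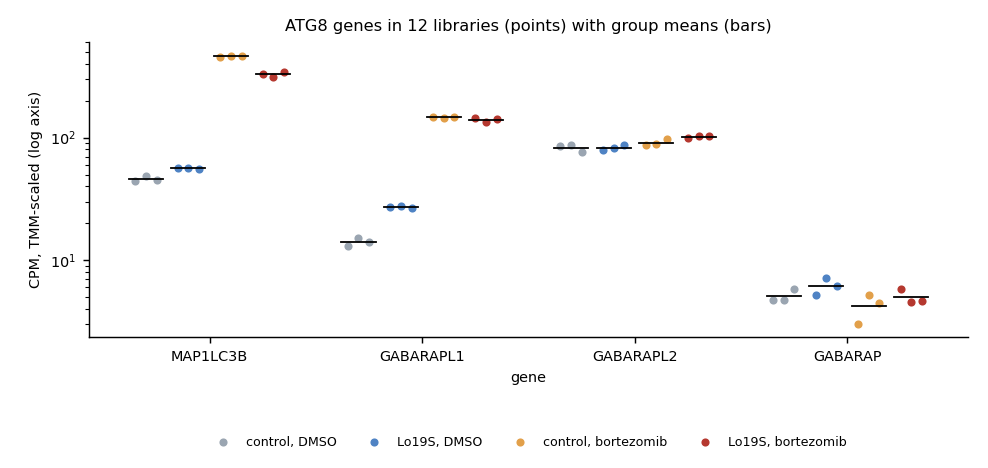
CPM (log axis) of the 4 ATG8 genes tested, in each of the 12 libraries (points, coloured by group) with the mean of each group (bars). MAP1LC3B and GABARAPL1 lie 5.16- to 10.5-fold higher with bortezomib, while the groups of GABARAPL2 lie close together and those of GABARAP overlap.

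Genes of the initiation complex rose with bortezomib except ULK2. RB1CC1, which encodes the scaffold FIP200, had the largest mean response of both states after those of the ATG8 pair. Its level was 109, 113 and 98.6 CPM in control DMSO libraries, 118, 120.4 and 131 in Lo19S DMSO, 427, 408 and 417 in control bortezomib and 452, 440.1 and 463 in Lo19S bortezomib, with no overlap between groups. Its log2 fold change was 1.96 (SE 0.043) in control and 1.88 (SE 0.042) in Lo19S cells. The kinase gene ULK1 was at 59.8, 58.3 and 67.8 CPM in control DMSO, 81.2, 79.4 and 77.2 in Lo19S DMSO, 178, 169 and 183 in control bortezomib and 185, 187 and 189.6 in Lo19S bortezomib libraries. Its Lo19S libraries were higher than the control libraries under DMSO, and all 4 groups were apart, though under bortezomib by little. It rose by 1.51 (SE 0.050) in control and 1.24 (SE 0.048) in Lo19S cells.

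The adaptor gene ATG13 was at 111, 101 and 111 CPM in control DMSO, 126, 123 and 123 in Lo19S DMSO, 218, 215 and 219 in control bortezomib and 197, 199 and 209 in Lo19S bortezomib libraries. It was above control in Lo19S cells under DMSO and below control under bortezomib, without overlap, and it rose by 1.01 (SE 0.043) and 0.70 (SE 0.042). Its partner ATG101 rose by 0.71 and 0.62. ULK2, the second ULK kinase of the set, differed by -0.12 in control cells (adjusted p = 0.154) and fell by 0.26 in Lo19S cells (adjusted p = 0.00214).

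In the PI3-kinase complex, 4 of 5 genes rose and 1 fell in both states. ATG14, the subunit that directs the complex to autophagosomes, moved most. ATG14 was at 35.0, 35.6 and 33.5 CPM in control DMSO, 39.029, 42.9 and 39.8 in Lo19S DMSO, 111, 108 and 103 in control bortezomib and 81.4, 83.9 and 85.2 in Lo19S bortezomib libraries. All groups were apart, with the highest level in control cells given bortezomib. The rise was 1.63 (SE 0.058) in control and 1.04 (SE 0.058) in Lo19S cells. The catalytic subunit gene PIK3C3 rose by 0.89 and 0.81, and BECN1, the Beclin scaffold, by 0.69 and 0.68. The count of BECN1 is uncertain, since 4.7% of its exon bases lie opposite the abundant PSME3 (mean count 3723.8). UVRAG, which takes the place of ATG14 in the endosomal form of the complex, rose by 0.48 and 0.35, calls that were both lost with library totals. PIK3R4, the regulatory subunit shared by both forms, fell by 0.28 (SE 0.055) and 0.35 (SE 0.056).

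Of the lipid transfer proteins and PI3P effectors, 5 of 6 rose in each state. WDR45, a PI3P-binding propeller protein, was at 14.9, 15.1 and 13.998 CPM in control DMSO, 16.5, 17.2 and 20.3 in Lo19S DMSO, 44.5, 41.9 and 46.7 in control bortezomib and 37.9, 44.2 and 43.3 in Lo19S bortezomib libraries. Its DMSO groups did not overlap and its bortezomib groups did. It rose by 1.59 (SE 0.086) in control and 1.23 (SE 0.083) in Lo19S cells, and 13.9% of its annotated exon bases are shared with PRAF2 on the same strand, so its count is uncertain. The related WIPI1, with 24.3% of its exon bases opposite ARSG, rose by 1.21 and 1.24, and WIPI2 by 0.76 and 0.66.

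ATG2A and ATG2B, paralogs that channel lipids into the growing membrane, took different courses. ATG2A was at 50.3, 50.0 and 58.2 CPM in control DMSO, 53.3, 53.1 and 47.9 in Lo19S DMSO, 79.9, 85.5 and 90.9 in control bortezomib and 69.8, 70.8 and 70.1 in Lo19S bortezomib libraries. ATG2B was at 71.6, 71.0 and 64.6 CPM in control DMSO, 76.1, 77.2 and 76.6 in Lo19S DMSO, 130.4, 119.5 and 124 in control bortezomib and 185, 176 and 187 in Lo19S bortezomib libraries. Under bortezomib, ATG2A was lower and ATG2B higher in every Lo19S library than in every control library. ATG2A rose by 0.70 (SE 0.061) in control and 0.44 (SE 0.062) in Lo19S cells. ATG2B rose by 0.85 (SE 0.050) and 1.26 (SE 0.048). ATG9A, the scramblase of the vesicles that seed the membrane, was not called in either state (0.09, interval -0.06 to 0.24, and 0.12, interval -0.03 to 0.27). It was called higher in control cells without control DMSO replicate 3 (adjusted p = 0.00507), but lower with library totals (-0.29 and -0.17). In addition, 38.8% of its exon bases are shared with AC068946.2 on the same strand.

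Of the 10 conjugation genes, 7 rose and 2 fell in control cells, and 8 rose and 2 fell in Lo19S cells. ATG4A, one of the proteases that trim ATG8 proteins, was at 11.3, 11.8 and 10.5 CPM in control DMSO, 15.1, 13.3 and 16.6 in Lo19S DMSO, 45.6, 43.1 and 43.5 in control bortezomib and 46.2, 48.2 and 44.9 in Lo19S bortezomib libraries. Its DMSO groups were apart and its bortezomib groups overlapped. It rose by 1.97 (SE 0.087) in control and 1.63 (SE 0.081) in Lo19S cells. The other proteases ranged from a rise to a fall. ATG4D was at 16.9, 17.3 and 23.5 CPM in control DMSO, 24.4, 22.1 and 22.1 in Lo19S DMSO, 38.6, 36.2 and 34.8 in control bortezomib and 35.6, 33.6 and 34.3 in Lo19S bortezomib libraries, with control DMSO replicate 3 above the other 2 control DMSO libraries, and rose by 0.94 (SE 0.090) and 0.59 (SE 0.087). For ATG4D the DMSO groups overlapped, and so did the bortezomib groups. The count of ATG4D is uncertain, since 15.0% of its exon bases lie opposite KRI1. ATG4B rose by 0.36 and 0.41, calls lost with library totals, and ATG4C fell by 0.67 (SE 0.122) and 0.36 (SE 0.114).

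The complex of ATG12, ATG5 and ATG16L1 helps to attach ATG8 proteins to lipid, and its genes did not move together. ATG16L1 was at 31.5, 32.3 and 33.0 CPM in control DMSO, 35.2, 33.1 and 28.4 in Lo19S DMSO, 70.9, 73.4 and 69.2 in control bortezomib and 58.8, 62.8 and 55.8 in Lo19S bortezomib libraries, a rise of 1.14 (SE 0.067) and 0.85 (SE 0.068). ATG12 was at 53.6, 56.4 and 49.5 CPM in control DMSO, 53.4, 54.1 and 54.5 in Lo19S DMSO, 98.0, 96.2 and 95.3 in control bortezomib and 83.7, 84.2 and 85.1 in Lo19S bortezomib libraries. It rose by 0.86 (SE 0.054) and 0.64 (SE 0.055). For both genes the DMSO groups overlapped, and every Lo19S bortezomib library was below every control bortezomib library. ATG5 was at 38.4, 37.9 and 36.1 CPM in control DMSO, 38.3, 38.5 and 37.7 in Lo19S DMSO, 34.7, 37.2 and 34.7 in control bortezomib and 45.4, 44.7 and 44.6 in Lo19S bortezomib libraries. Its Lo19S bortezomib libraries were higher than all others, and its control bortezomib libraries overlapped those of control DMSO. ATG5 differed by -0.08 in control cells (adjusted p = 0.305) and rose by 0.23 in Lo19S cells (SE 0.064, adjusted p = 0.00124). With library totals it was lower in control cells (-0.46, called) and near 0 in Lo19S cells.

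The enzymes that activate and hand on ATG8 and ATG12 moved modestly, except one. ATG10, the conjugating enzyme for ATG12, was at 11.2, 11.4 and 12.2 CPM in control DMSO, 11.1, 12.4 and 13.0 in Lo19S DMSO, 4.63, 5.44 and 4.99 in control bortezomib and 7.87, 4.09 and 6.76 in Lo19S bortezomib libraries. All bortezomib libraries were below all DMSO libraries. It fell by 1.20 (SE 0.153) and 0.91 (SE 0.13999). Its count is uncertain, since 6.9% of its exon bases lie opposite the abundant ribosomal protein gene RPS23. ATG3, the conjugating enzyme for ATG8 proteins, rose by 0.43 and 0.46, and ATG7, the activating enzyme for both, by 0.38 and 0.19. With library totals the calls of ATG7 in both states and of ATG3 in control cells were lost. The ATG7 call in Lo19S cells was lost without Lo19S DMSO replicate 1 or Lo19S bortezomib replicate 3 (adjusted p from 0.0949 to 0.117). The count of ATG7 is uncertain, since 18.1% of its exon bases lie opposite VGLL4.

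Receptors for ubiquitinated cargo rose in both states. TAX1BP1, a receptor for ubiquitinated cargo, was at 243, 241 and 212 CPM in control DMSO, 262, 259.7 and 277 in Lo19S DMSO, 598, 606 and 588 in control bortezomib and 662, 632 and 651 in Lo19S bortezomib libraries. All groups were apart, and Lo19S libraries were higher under either treatment. It rose by 1.36 (SE 0.040) and 1.29 (SE 0.039). CALCOCO2, the receptor NDP52, rose by 1.07 and 1.05. Mitophagy genes moved less: BNIP3L, the mitochondrial receptor NIX, rose by 0.63 and 0.82. PINK1, the kinase that marks damaged mitochondria, rose by 0.41 and 0.32, calls lost with library totals. Its count is uncertain, since 39.4% of its exon bases lie opposite PINK1-AS. The mitochondrial receptor gene FUNDC1 differed by -0.10 (adjusted p = 0.257) and fell by 0.23 in Lo19S cells (adjusted p = 0.00906, 0.154 without Lo19S bortezomib replicate 3).

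The fusion factor and the ATG8 partner of the set went apart. STX17, the syntaxin through which autophagosomes fuse with lysosomes, rose by 0.37 and 0.44, calls lost with library totals. TP53INP2, an ATG8-binding protein also known as DOR, was at 17.3, 17.3 and 20.7 CPM in control DMSO, 17.6, 14.7 and 15.2 in Lo19S DMSO, 15.2, 17.7 and 16.6 in control bortezomib and 8.70, 10.1 and 8.78 in Lo19S bortezomib libraries. Its Lo19S bortezomib libraries were lower than all others, and the other groups overlapped. It differed by -0.15 in control cells (interval -0.36 to 0.06, adjusted p = 0.177, and -0.53 and called with library totals) and fell by 0.81 in Lo19S cells (SE 0.118, adjusted p = 3.17e-08).

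The MiT/TFE factors moved in opposite directions at unequal levels. TFE3 was at 79.1, 76.3 and 83.2 CPM in control DMSO, 103, 93.9 and 96.9 in Lo19S DMSO, 249.09, 246 and 253 in control bortezomib and 253, 254 and 252 in Lo19S bortezomib libraries. Its DMSO groups were apart and its bortezomib groups overlapped, after rises of 1.65 (SE 0.044) and 1.37 (SE 0.043). TFEB was at 2.11, 2.04 and 3.06 CPM in control DMSO, 2.70, 2.58 and 1.5995 in Lo19S DMSO, 1.46, 0.9999 and 1.31 in control bortezomib and 0.953, 1.61 and 0.648 in Lo19S bortezomib libraries, from 8 to 34 counts per library. Its DMSO and bortezomib libraries overlapped at the edge in Lo19S cells. It fell by 0.93 (SE 0.313, adjusted p = 0.0065) and 1.27 (SE 0.325, adjusted p = 0.000502). Per kilobase of exon in control DMSO libraries, TFE3 was at 18.6 ± 0.818 CPM/kb and TFEB at 0.426 ± 0.101 CPM/kb (SD, n = 3).

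Lo19S and control libraries given DMSO were set side by side to describe the induced state without bortezomib. A minority of the machinery was higher in the Lo19S state, by small amounts apart from GABARAPL1. Of 39 members 14 rose and 1 fell (38.5% called), where 24.6% of all genes tested were called, 11.7% higher and 13.0% lower. Without control DMSO replicate 3, 12 members were called higher and 1 lower, beside 2184 and 2417 of all genes. More of all genes were thus called then, and the members stood out less. The groups did not overlap for 15 members, where 34.4% of all genes did not. The members' median was 0.07, beside 0.00 over all genes tested. GABARAPL1 was 1.94-fold higher (log2 fold change 0.96, SE 0.080, adjusted p = 1.18e-13), the only member past 1.5-fold. ATG4A (0.41, SE 0.102), ULK1 (0.36, SE 0.053), TFE3 (0.30, SE 0.047) and MAP1LC3B (0.29, SE 0.054) followed. WDR45, ATG4D, PINK1, ATG14, CALCOCO2, ATG13, RB1CC1, TAX1BP1 and ATG2B rose by 0.15 to 0.28. The PI3P effector WIPI1 was the one that fell, by 0.21 (SE 0.062, adjusted p = 0.0105).

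By role, the initiation complex had 3 of 5 genes higher, the receptors and mitophagy factors 3 of 5, and the ATG8 genes 2 of 4 tested. The conjugation group had 2 of 10 higher, and its core enzymes ATG3, ATG5, ATG7, ATG10, ATG12 and ATG16L1 differed by -0.06 to 0.12 with no call. BECN1 differed by -0.01 (interval -0.11 to 0.08) and TFEB by -0.03, with a wide interval of -0.54 to 0.48 at its low count. DESeq2, a fit without the count filter and, except for WDR45, a fit of the 2 groups alone lost ATG2B, WDR45, ATG4D and PINK1 (adjusted p from 0.0513 to 0.164), and several weaker calls rested on single libraries. WDR45 was lost when Lo19S DMSO replicate 3 or control DMSO replicate 1 or 3 was left out (adjusted p from 0.0542 to 0.211), and ATG2B without control DMSO replicate 3 or any 1 of the Lo19S DMSO libraries (0.0699 to 0.114). ATG4D (0.051 to 0.274) and PINK1 (0.0649 to 0.276) needed each of control DMSO replicates 1 and 2 and Lo19S DMSO replicates 1 and 2. WIPI1 was lost without Lo19S DMSO replicate 1 (0.0731) and ATG14 without Lo19S DMSO replicate 2 (0.0734).

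**Figure D4:**
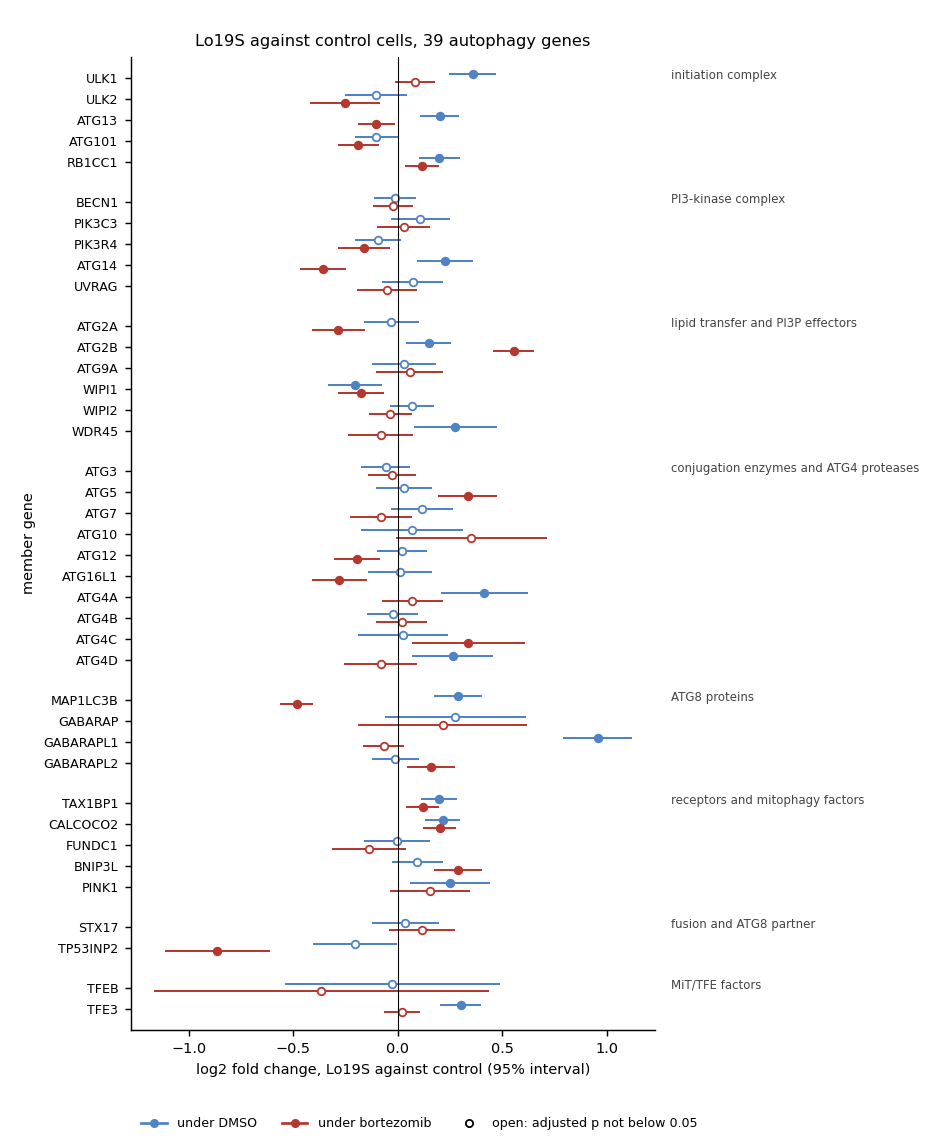
Log2 fold change of Lo19S against control cells for the 39 members tested, by role, under DMSO (blue) and under bortezomib (red), with 95% intervals; open points did not pass the test. GABARAPL1 lies at 0.96 under DMSO and -0.07 under bortezomib, ATG2B at 0.56 and TP53INP2 at -0.86 under bortezomib.

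The same contrast was made under bortezomib, to see how the states compare once the proteasome is inhibited. Members were then called in both directions: 8 rose and 11 fell in Lo19S cells, with a median of -0.03 beside 0.00 over all genes. Of the members 48.7% were called, where 43.2% of all genes tested were called, 22.0% higher and 21.2% lower. The states did not overlap for 25 members, where 52.9% of all genes did not. With library totals, which moved the median of all genes by 0.11, the members split as 14 higher and 5 lower. All genes tested then split as 4921 higher and 1881 lower. DESeq2 called 4 members higher and 11 lower, beside 2580 and 2810 of all genes. Without Lo19S bortezomib replicate 3 the members split as 5 and 9, beside 2752 and 2616 of all genes. ATG101, ATG12, ATG13, PIK3R4, ULK2 and WIPI1 were not called with library totals, and ATG10, ATG4A, PINK1, STX17, TFE3 and ULK1 were called higher. The largest differences in either direction were those of TP53INP2 (-0.86, SE 0.122), ATG2B (0.56, SE 0.046) and MAP1LC3B (-0.48, SE 0.037, adjusted p = 3.46e-15). ATG14 (-0.36, SE 0.053), ATG2A (-0.28) and ATG16L1 (-0.28) were lower, and ATG5 (0.33, SE 0.068), ATG4C (0.34) and BNIP3L (0.29) were higher. GABARAPL1 differed by -0.07 (interval -0.16 to 0.03), TFE3 by 0.02 (interval -0.06 to 0.10) and ATG4A by 0.07 (interval -0.07 to 0.21), with no call.

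The states differed by a call under both treatments for 5 members. How many of all genes tested did so was not counted, and 24.6% were called under DMSO and 43.2% under bortezomib. RB1CC1, ATG2B, TAX1BP1 and CALCOCO2 were called higher in Lo19S cells under DMSO and under bortezomib, and WIPI1 lower. Under bortezomib, DESeq2 did not call RB1CC1 (adjusted p = 0.0754) or TAX1BP1 (0.0558), nor ATG4C or GABARAPL2, and with library totals WIPI1 was not called (0.334). Calls under bortezomib that single libraries decided were those of ATG13, PIK3R4, ATG4C, GABARAPL2, ULK2, RB1CC1 and WIPI1. ATG13 was lost without Lo19S DMSO replicate 2, any 1 control bortezomib library, or Lo19S bortezomib replicate 1 or 2 (adjusted p from 0.0515 to 0.139). PIK3R4 (0.0676 to 0.116) was lost without control bortezomib replicate 1 or 2 or Lo19S bortezomib replicate 2 or 3, and ATG4C (0.0502 to 0.172) without control bortezomib replicate 1 or any 1 Lo19S bortezomib library. GABARAPL2 was lost without control bortezomib replicate 1 or 2 or Lo19S bortezomib replicate 3 (0.0671 to 0.11), ULK2 without control bortezomib replicate 1 or Lo19S bortezomib replicate 3 (0.0652 to 0.102), RB1CC1 without control bortezomib replicate 2 or Lo19S bortezomib replicate 3 (0.0828 to 0.0929), and WIPI1 without Lo19S bortezomib replicate 1 (0.0513). ULK1 was called higher without control DMSO replicate 3 (0.0338) and ATG10 without Lo19S bortezomib replicate 2 (0.0131).

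Whether the response itself differed between the states was tested as an interaction, with values given as Lo19S minus control. The response was smaller or more negative in Lo19S cells for 13 of 39 members and larger for 2 (38.5% called), where 27.8% of all genes tested were called, 14.5% with a larger and 13.4% with a smaller value. The members' median difference was -0.10, beside 0.01 over all genes. GABARAPL1 had the largest difference (-1.02, SE 0.093, adjusted p = 1.92e-12), followed by MAP1LC3B (-0.77, SE 0.066, adjusted p = 2.51e-13). TP53INP2 (-0.66, SE 0.158) and ATG14 (-0.58, SE 0.083) came next. The lipid channel gene ATG2B (0.41, SE 0.070) and the conjugation gene ATG5 (0.31, SE 0.094) were the 2 with a larger response in Lo19S cells.

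**Figure D5:**
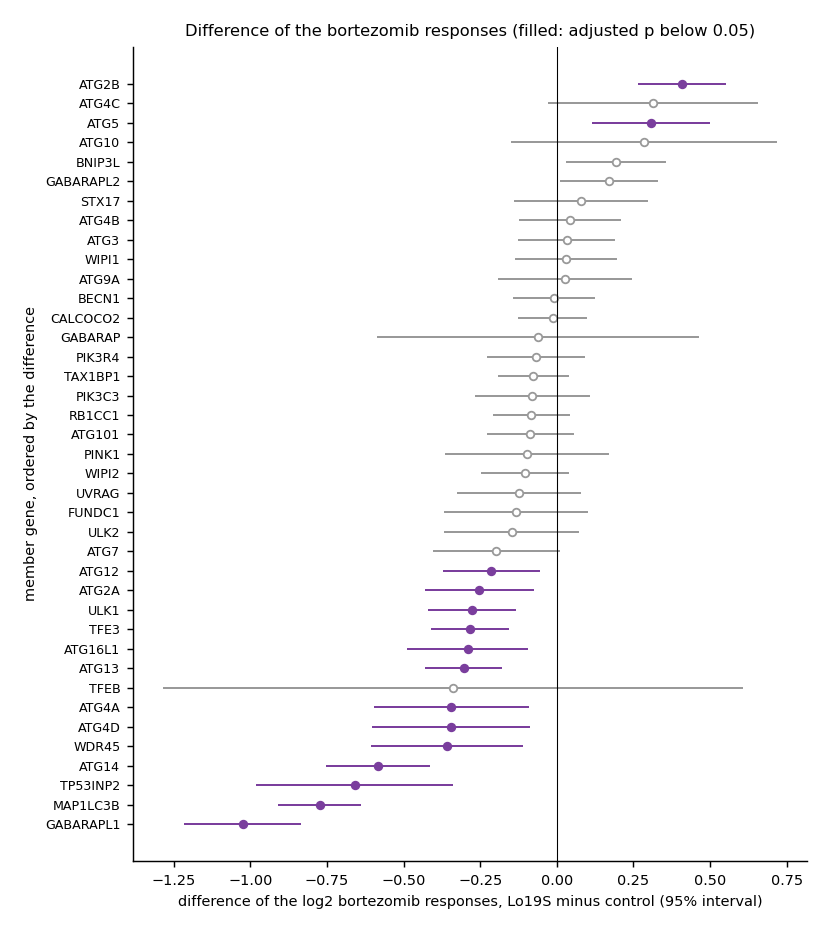
Difference of the log2 bortezomib responses, Lo19S minus control, for the 39 members tested, ordered by value, with 95% intervals; filled points passed the test. GABARAPL1 at -1.02 and MAP1LC3B at -0.77 lie at the low end, and ATG2B at 0.41 at the high end.

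The smaller or more negative responses arose from different starting and end points. This difference equals the state difference under bortezomib minus that under DMSO and rests on the same libraries, so the values are given side by side. Of the 13 members with a smaller or more negative response, 12 rose with bortezomib in both states. The other, TP53INP2, fell in Lo19S cells (-0.81) and was not called in control cells (-0.15). Of the 13 members, 9 were called higher in Lo19S cells under DMSO. Of these 9, GABARAPL1, ULK1, ATG4A, ATG4D, TFE3 and WDR45 were not called under bortezomib, with values from -0.08 to 0.08, although with library totals ATG4A, TFE3 and ULK1 were called higher there. MAP1LC3B, ATG14 and ATG13 were instead higher in Lo19S cells under DMSO and lower under bortezomib, although with library totals ATG13 was at 0.0081 under bortezomib. ATG12, ATG16L1, ATG2A and TP53INP2 were called lower under bortezomib and not called under DMSO, where they differed by -0.20 (TP53INP2) to 0.02 (ATG12). The call of ATG12 under bortezomib was lost with library totals (adjusted p = 0.203).

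The weaker of these calls depend on scaling and on single libraries. With library totals 4 members had a larger and 7 a smaller response, beside 3337 and 1256 of all genes tested. In the main fit all genes split as 2128 and 1968. The calls of ATG12, ATG16L1, ATG2A, ATG4A, ATG4D and WDR45 were lost with library totals. Leaving out replicate 1 of control DMSO, replicate 1 of Lo19S DMSO or replicate 3 of Lo19S bortezomib gave 8 smaller responses each. Of all genes 1732, 1641 and 1602 then had smaller ones. Without control DMSO replicate 3 there were 4 larger and 11 smaller ones, beside 2625 and 2355 of all genes. DESeq2 lost those of ATG4A and ATG4D. Leaving out any 1 library lost ATG12 (adjusted p from 0.0512 to 0.075), except control DMSO replicate 2 and control bortezomib replicate 3. Each of control DMSO replicate 1, Lo19S DMSO replicate 1 and Lo19S bortezomib replicate 3 decided the calls of ATG2A, ATG4D, ATG4A and ATG16L1. Further libraries that ended a call were control DMSO replicate 2, Lo19S DMSO replicate 2 and control bortezomib replicates 2 and 3 for ATG2A (0.0519 to 0.105), and control DMSO replicate 2, control bortezomib replicates 1 and 2 and Lo19S bortezomib replicate 2 for ATG4D (0.0601 to 0.172). For ATG4A they were control DMSO replicate 3, Lo19S DMSO replicate 3 and control bortezomib replicate 1 (0.0558 to 0.128), for ATG16L1 Lo19S DMSO replicate 2 and control bortezomib replicate 2 (0.053 to 0.132). WDR45 was lost without Lo19S DMSO replicate 3, control bortezomib replicate 3 or Lo19S bortezomib replicate 1 (0.0688 to 0.118). GABARAPL2 (0.17) was called larger without control DMSO replicate 3 or control bortezomib replicate 3 (0.00254 and 0.0432), and BNIP3L (0.19) without control DMSO replicate 3 or control bortezomib replicate 2 (0.00367 and 0.0317). The receptor genes TAX1BP1 (-0.08, interval -0.19 to 0.03) and CALCOCO2 (-0.01, interval -0.12 to 0.10) showed no called difference.

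Other genes of the pathway were taken from 4 lists with 70 genes, of which 69 were found and 64 tested. In control cells 46 rose and 13 fell with bortezomib, and in Lo19S cells also 46 and 13 (92.2% called in each), with medians of 0.47 and 0.45. Of all genes tested 81.4% and 77.5% were called, with 39.2% and 37.8% of all genes higher, which is the background for the list counts that follow. Among 16 further receptors tested, 13 rose and 2 fell in control cells, and 14 and 2 in Lo19S cells. SQSTM1, the receptor p62, rose from 291, 287 and 305 CPM to 2060, 2092 and 2048 CPM in control cells (2.81, SE 0.034) and from 507, 493 and 495 CPM to 2466, 2433 and 2406 CPM in Lo19S cells (2.29, SE 0.032). It was higher in Lo19S cells under both treatments, by 0.76 under DMSO and 0.24 under bortezomib, with a smaller response in Lo19S cells (-0.52, SE 0.045).

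Among 15 further ATG and membrane genes tested, 12 rose and 3 fell in each state. ATG9B, the paralog of ATG9A, rose by 3.51 and 3.21, and C9orf72, of a complex that acts with ULK1, by 3.20 and 2.65. ATG16L2, the paralog of ATG16L1, fell by 1.86 and 1.42. NRBF2, a partner of ATG14, rose by 1.69 and 1.26. Under DMSO, TECPR1, a tether of autophagosomes and lysosomes, was the largest difference on that list, at 0.86 (SE 0.112).

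Of 11 genes of the fusion machinery, 6 rose and 3 fell in control cells, and 6 and 4 in Lo19S cells. The SNARE gene YKT6 rose by 0.83 and 0.53, while SNAP29, the partner of STX17, fell by 0.75 and 0.62. Of 22 genes tested that act in nutrient sensing upstream of ULK1 or regulate MiT/TFE factors, 15 rose and 5 fell in control cells, and 14 and 4 in Lo19S cells. MITF, another MiT/TFE factor, rose by 2.32 and 2.13, the folliculin gene FLCN by 1.48 and 1.07, and the Rag GTPase gene RRAGC by 1.45 and 1.30. In Lo19S cells under DMSO, 17 of the 64 pathway genes rose and 2 fell (29.7% called, against 24.6% of all genes tested), and under bortezomib 23 rose and 12 fell (54.7%, against 43.2%). The response differed between states for 20 of them (31.2%, against 27.8% of all genes), with a higher value in Lo19S cells for 8 and a lower one for 12. On the nutrient-sensing list DEPTOR, an mTOR-binding inhibitor, had the largest difference under DMSO (0.50, SE 0.119).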

How the data were processed

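Polyadenylated RNA was measured in 12 libraries. In the deposited files, 1 per library, each Ensembl gene has a whole-number count of reads with no scaling. Per the submitters' processing notes, the authors used STAR 2.5.4b, featureCounts 1.6.1 and GRCh37. How featureCounts treated strand and multi-mapped reads is not given in the sources used here. Overlapping and near-identical genes are therefore uncertain.

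After filterByExpr by group, 14714 genes were scaled by TMM and fitted with edgeR 4.0.16 (R 4.3.3), robust quasi-likelihood, group means as coefficients, 12 libraries together. Adjustment was by Benjamini-Hochberg over all genes tested, with calls at an adjusted p below 0.05. SE was computed from the log2 fold change and its F statistic, and intervals are 95%. The fit was tried on data simulated from control DMSO means, with genes changed in the Lo19S DMSO group only. Bortezomib responses, their difference between states and the shift in scaling were not simulated. The alternatives were library totals, RLE factors, DESeq2 1.42.0, no filter, fits of 2 groups, a replicate block and leaving out each library. Members and lists were chosen with earlier results of these data known. Values in every library are given for ATG8 genes, the extremes of the response, the largest of each role, members with a called difference of responses, and those called under DMSO at 0.3 or more. Of other pathway genes, up to 4 per list and comparison are named by size of called change. Protein sequences were not used here. Same-numbered libraries did not deviate together (correlations of deviations from -0.07 to 0.03), so the numbers were not treated as pairs.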

Additional observations from a re-analysis of the deposited data

Results flagged for a closer look

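For 15 members the bortezomib response differed between the states by the interaction test of edgeR at an adjusted p below 0.05, where 27.8% of all genes tested did. The difference of the log2 responses, Lo19S minus control, was -1.02 for GABARAPL1 and -0.77 for MAP1LC3B, the pair of induced ATG8 genes. In the initiation complex it was -0.28 for ULK1 (adjusted p = 0.00206) and -0.30 for ATG13. ATG14 of the PI3-kinase complex had a difference of -0.58. Among lipid transfer proteins and PI3P effectors, ATG2A was at -0.25 and WDR45 at -0.36, while ATG2B was at 0.41. Conjugation genes with a smaller response were ATG12 (-0.21, adjusted p = 0.0318), ATG16L1 (-0.29), ATG4A (-0.34) and ATG4D (-0.35, adjusted p = 0.035), and ATG5 had a larger one (0.31). TP53INP2 was at -0.66 and TFE3 at -0.28. The paralogs ATG2A and ATG2B therefore differed in opposite directions, as did the complex partners ATG5 and ATG16L1. The calls of ATG2A and ATG16L1 are weak, and both were lost with library totals and without the count filter. With 1 library left out, the call of ATG2A was lost in 7 fits and that of ATG16L1 in 5.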

How the results depend on the processing

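Leaving out a library, RLE factors, DESeq2, fits of 2 groups and the replicate block moved the number of members called, in either direction, by at most 1.5 times in each comparison. Counts in 1 direction moved more: DESeq2 called 4 members higher under bortezomib in place of 8, and leaving out single libraries left 5 of these. It also left 8 of 13 smaller or more negative responses, and gave 4 in place of 2 larger ones. With the replicate block 15, 33, 37, 19 and 15 members were called (states under DMSO, bortezomib in control and in Lo19S cells, states under bortezomib, difference of responses), the same numbers as without it, so the block changed no count. Leaving out each library gave 11 to 15, 32 to 33, 35 to 37, 14 to 20 and 10 to 15. Over all genes tested it gave 2840 to 4601, 11659 to 12124, 10872 to 11829, 5368 to 7081 and 3408 to 4980. DESeq2 called 11 under DMSO and 13 for the difference of responses, beside 2626 and 3213 of all genes. Without a filter on low counts the difference of responses was called for 9 members, with ATG12, ATG16L1, ATG2A, ATG4A, ATG4D and WDR45 lost, and the median of the members with bortezomib in control cells was 0.63.

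Library totals moved the members' median with bortezomib to 0.32 in control cells and 0.33 in Lo19S cells. They moved it to -0.0045 for the difference of responses, and to 0.084, with the opposite sign, for Lo19S against control under bortezomib. Over all genes tested the medians were then -0.42 and -0.31 with bortezomib in control and Lo19S cells. For the difference of responses the all-gene median was 0.10, and for Lo19S against control under bortezomib 0.115. The members' median thus stayed above that of all genes with bortezomib, and below it in the other comparisons named. Of members called under either scaling, with bortezomib in control cells ATG9A (-0.29), GABARAPL2 (-0.24), ATG4B (-0.017) and STX17 (-0.015) changed sign. In Lo19S cells ATG9A (-0.17), ATG5 (-0.056) and ATG7 (-0.10) did, and ATG13 (0.0081) did for Lo19S against control under bortezomib. MAP1LC3A (0 to 4 counts per library) was too shallow to test, and with bortezomib in control cells TFEB and GABARAP had the largest SE of the members tested.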

Other observations

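Receptors for autophagy of the endoplasmic reticulum, which are on the list of further receptors, did not respond alike. CCPG1 rose with bortezomib by 1.21 in control cells and 1.25 in Lo19S cells (SE 0.10013 and 0.087) and was higher in Lo19S cells under DMSO (0.52) and under bortezomib (0.56). SEC62 rose by 0.66 and 0.52, and RTN3 by 0.29 and 0.48. TEX264 fell by 1.51 in both states. RETREG1, also known as FAM134B, was at 14.4, 14.8 and 13.5 CPM in control DMSO libraries, 12.4, 16.4 and 16.0 in Lo19S DMSO, 14.4, 14.8 and 13.8 in control bortezomib and 25.7, 26.0 and 25.8 in Lo19S bortezomib. It differed by 0.01 in control cells (interval -0.21 to 0.23) and rose by 0.80 in Lo19S cells, and this difference of responses was called (0.79, SE 0.145, adjusted p = 2.69e-05).

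On the nutrient-sensing list, RRAGD, a Rag GTPase, FOXO3, a transcription factor of stress responses, and DEPTOR had more positive responses in Lo19S than in control cells (difference 0.59, 0.63 and 0.61), while the lysosomal channel MCOLN1, TSC1 and FLCN had less positive ones (-0.53, -0.43 and -0.41). FOXO3 fell in both states, by 0.97 in control and 0.34 in Lo19S cells, so its fall was the smaller one in Lo19S cells. The genes of both paragraphs were picked after their values had been seen.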
